A study of Homo sapiens with 17 samples.

Results

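Syndecan-1 (SDC1) and the heparan sulfate 3-O-sulfotransferase HS3ST1 were taken by symbol from 4 tables of the authors' own comparisons, which together list 1400 genes. These 2 genes were picked from values of these tables: SDC1 was listed with every hairpin and HS3ST1 with 1 of them. The tables list 3.44% (MED25 hairpin A), 1.61% (MED25 hairpin B), 2.17% (ETV4 hairpin A) and 0.456% (ETV4 hairpin B) of annotated protein-coding genes, but as the listing itself picked the 2 genes, nothing is read from their presence. Their own ratios are likewise descriptions, with no test. The 17 libraries were made from PC3, an established human prostate cancer cell line, harvested 7 days after viral infection. Lentivirus carried short hairpin RNA (shRNA, here hairpin) A or B against MED25, a Mediator subunit, with 3 libraries each, and was compared with 3 lentiviral control libraries. Retrovirus carried hairpin A or B against ETV4, an ETS-family transcription factor, with 3 libraries each, and was compared with 2 retroviral control libraries. The labels describe the lentiviral control as a luciferase shRNA and the retroviral one as a control shRNA, whereas the design text speaks of an empty vector. No label says whether libraries of a group came from separate cultures, and all come from 1 cell line, whose identity the tables cannot check because they hold no expression levels.

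Syndecan-1 is a transmembrane proteoglycan of epithelial cells and plasma cells. Its extracellular part carries heparan sulfate chains, which are built in the Golgi on a linker sugar, polymerised, and then sulfated by a series of enzymes. The sulfation pattern governs which growth factors, chemokines and matrix proteins the chain binds at the cell surface. HS3ST1 adds the rare 3-O-sulfate that completes the antithrombin-binding site of heparan sulfate. Proteases can shed the syndecan ectodomain, and the endosulfatase SULF2 can trim sulfate from chains outside the cell.

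SDC1 (ENSG00000115884) is on chromosome 2 and HS3ST1 (ENSG00000002587) on chromosome 4, and both are protein-coding genes on the minus strand in GENCODE release 29. No annotated gene overlaps SDC1. The single gene overlapping HS3ST1 is RNA5SP156, a ribosomal RNA pseudogene on the same strand.

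ETS factors such as ETV4 bind DNA around a GGAA core, so the bases before the SDC1 starts are shown with each GGAA, or its reverse complement TTCC, in capitals. RefSeq's promoter table (GRCh38.p14) gives SDC1 2 starts, and both stretches are read 5′ to 3′ on the minus strand. The first covers the 250 bases before the outer start (chr2:20225476-20225725). The second covers the 131 bases before the inner start (chr2:20225131-20225261) that lie outside annotated exons.
SDC1 outer start: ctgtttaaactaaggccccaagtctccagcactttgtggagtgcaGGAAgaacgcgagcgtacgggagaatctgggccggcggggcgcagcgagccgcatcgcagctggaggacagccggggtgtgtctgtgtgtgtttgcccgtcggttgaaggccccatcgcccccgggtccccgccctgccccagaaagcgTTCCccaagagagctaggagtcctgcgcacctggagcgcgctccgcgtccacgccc
SDC1 inner start: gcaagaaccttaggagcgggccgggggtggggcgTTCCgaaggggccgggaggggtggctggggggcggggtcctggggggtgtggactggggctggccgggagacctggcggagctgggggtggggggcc

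Each SDC1 start had 2 GGAA cores on either strand within 250 bases, at 205 and 56 bases before the outer start and at 203 and 97 bases before the inner one. The core at 203 bases lies in the exonic part of that window, which is not printed above. Such a core is common: 92.7% of 35116 RefSeq promoter windows of that length held at least 1, with a median of 3. The longer ETS motif CGGAAG, present in 16.5% of the windows, was in neither SDC1 window, nor was CCGGAAG, which contains it and was present in 8.52%. The AP-1 motif TGANTCA, found in 6.57% of windows, was also in neither. The E box CANNTG, found in 61.8% of windows, occurred at 148 and 29 bases before the outer SDC1 start. The HS3ST1 window held neither a GGAA core, and so neither longer ETS motif, nor the AP-1 motif, and its 1 E box lay 215 bases before the start. All of its 250 bases lie in an annotated HS3ST1 exon, so its sequence is not shown. Binding was not measured, and these letters describe the windows only.

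SDC1 RNA was lower with all 4 hairpins, to 27.1% and 30.2% of control with those against MED25 and to 55.9% and 55.8% with those against ETV4. On the log2 scale, the ratio of SDC1 over the lentiviral control in the authors' deposited tables was −1.88 with MED25 hairpin A and −1.73 with MED25 hairpin B. In bulk RNA, fewer cells with SDC1 RNA and less of it per cell cannot be told apart. In the authors' deposited tables for ETV4, the SDC1 log2 ratio over the retroviral control was −0.84 with hairpin A and −0.84 with hairpin B. Both MED25 values thus lie below both ETV4 values. The targets were compared in different viruses with different controls, and the tables give no value per library, so this gap was not tested.

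HS3ST1 was listed with MED25 hairpin B, where the authors' deposited table gives a log2 ratio of −0.77, or 58.6% of control. It was absent from the authors' deposited tables of MED25 hairpin A and of both ETV4 hairpins. A table lists only genes that were lower by at least 1.5-fold and passed the authors' limit on the adjusted p, so absence does not show that HS3ST1 kept its level. SDC1 is thus on record with every hairpin, while a single table carries the whole record of HS3ST1.

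**Figure D1:**
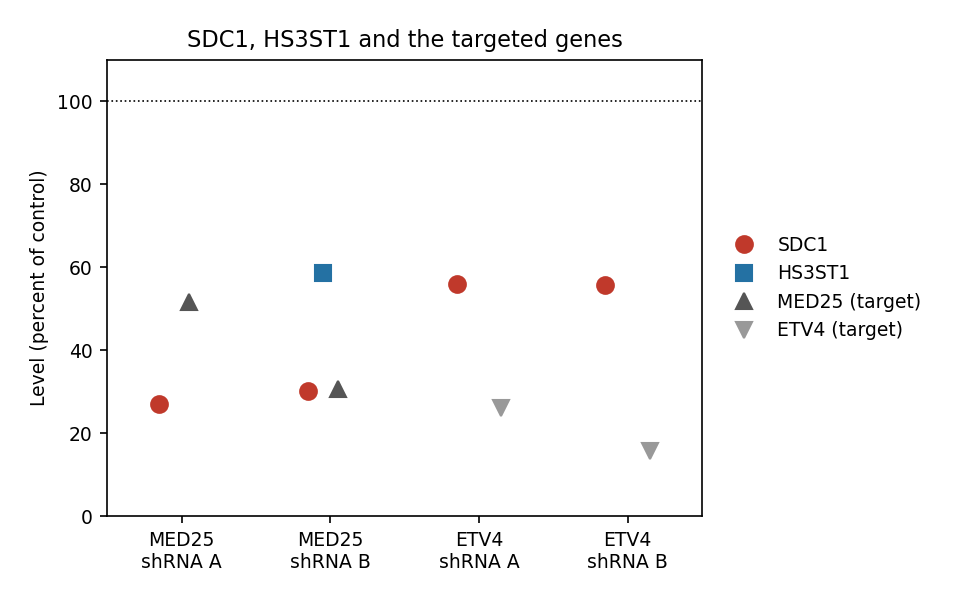
Level of SDC1, HS3ST1 and the targeted genes as a percent of control (vertical axis) in the 4 comparisons (horizontal axis); each point is the authors' deposited ratio, with no error available, and the dotted line marks the control level. SDC1 sits near 27.1% and 30.2% with the MED25 hairpins and at 55.9% and 55.8% with the ETV4 hairpins, and HS3ST1 appears once, at 58.6%.

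Levels of the target and of SDC1 RNA are set side by side here for the hairpins of each target. The values have no error, and a relation between them was not tested. MED25 stood at 51.6% of control with hairpin A and 30.5% with hairpin B in the authors' deposited tables, against 27.1% and 30.2% for SDC1. ETV4 stood at 26.1% and 15.8% in the authors' deposited tables, against 55.9% and 55.8% for SDC1. The sign of the targets helped to set the direction in which each ratio is read, so their decrease does not check the labels independently.

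The hairpins of a target share their controls, but the sources used here do not give the scaling of the ratios. If they were scaled alike, the control drops out of the difference between the ratios of hairpin A and B. For SDC1 this difference, hairpin A minus hairpin B, was −0.16 on the log2 scale for MED25, that is 0.896 times the level with hairpin B. Over the 153 genes in both MED25 tables the absolute difference had a median of 0.18, and that of SDC1 was number 70 from the smallest. For ETV4 the difference for SDC1 was 0.0013, the smallest of the 57 genes in both tables, whose absolute differences had a median of 0.31. These are differences between listed values, without an error.

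SDC1 ranked high by size of decrease for MED25 and mid-table for ETV4. It was number 6 of 786 genes with MED25 hairpin A and number 9 of 374 with hairpin B. Decreases of at least 2-fold made up 24% of the genes listed with MED25 hairpin A and 20.1% of those with hairpin B, and SDC1 was one of them for both. With ETV4 hairpin A it was number 198 of 495, and with hairpin B number 39 of 98, close to the 40% mark of either table. They made up 23.2% and 20.4% of the ETV4 lists, and SDC1 was not among them. HS3ST1 was number 188 of 374 with MED25 hairpin B, at the median of that table (−0.77).

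Neighbours in rank place these values. With MED25 hairpin A, SDC1 stood between the small heat shock protein gene CRYAB (−2.25) and the cationic amino acid transporter gene SLC7A1 (−1.83) in the authors' deposited table. With MED25 hairpin B it stood between the potassium channel gene KCNK15 (−1.74) and MED25 itself (−1.71) in the authors' deposited table. In the authors' deposited tables for ETV4 its neighbours were LPHN3 (−0.85) and ZCWPW1 (−0.84) with hairpin A, and the homeobox gene GBX2 (−0.85) and TMEM27 (−0.83) with hairpin B. HS3ST1 stood between DDN and CAMK2D (both −0.77) in the authors' deposited table for MED25 hairpin B. The values just inside the limit of that table were those of C11orf68 (−0.59) and ADAM15 (−0.59).

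Ranked by the deposited adjusted p, SDC1 was among the leading 5 genes of every table. The authors' headers call this quantity an adjusted p, but its values lie above 20 and its scale is not stated in the sources used here. It is treated here as a score, and larger values are read as stronger evidence. SDC1 was number 3 with MED25 hairpin A, number 2 with MED25 hairpin B, number 5 with ETV4 hairpin A and number 3 with ETV4 hairpin B. It was the 1 gene to be so placed in all 4 tables, and still the 1 gene when the leading 20 of each were taken. Only the 10 genes listed in all 4 tables could be so placed, and SDC1 was picked knowing it was among them. RASL11A, a small GTPase gene also in all 4 tables, was number 12, 15, 61 and 33 in the same order. Of the targets, ETV4 was number 1 by score with both of its hairpins, while MED25 was number 227 and number 17 with its own.

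The score of SDC1 was above that of each other gene listed with a like decrease. In the authors' deposited table for ETV4 hairpin A, 169 other genes had a log2 ratio within 0.1 of SDC1, with a median score of 50.9 and a highest score of 468, against 701 for SDC1. In that for ETV4 hairpin B, 26 such genes had a median score of 79.8 and a highest of 185, against 692 for SDC1. For MED25 hairpin A and B, where large decreases are few, 2 and 7 such genes reached at most 219 and 599 in the authors' deposited tables, against 950 and 808 for SDC1. The tables give neither a level nor an error per gene, so the part of read depth and of library spread in these scores was not tested.

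HS3ST1 was at the other end of the score. In the authors' deposited table for MED25 hairpin B its score was 26.7, number 334 of 374, where the lowest score listed was 20.3. Of the 149 other genes within 0.1 of its log2 ratio, 124 had a higher score. It was one of 195 genes listed with MED25 hairpin B alone, which make up 52.1% of that table. Within those it was number 87 by decrease and number 165 by score, and their median log2 ratio was −0.73.

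**Figure D2:**
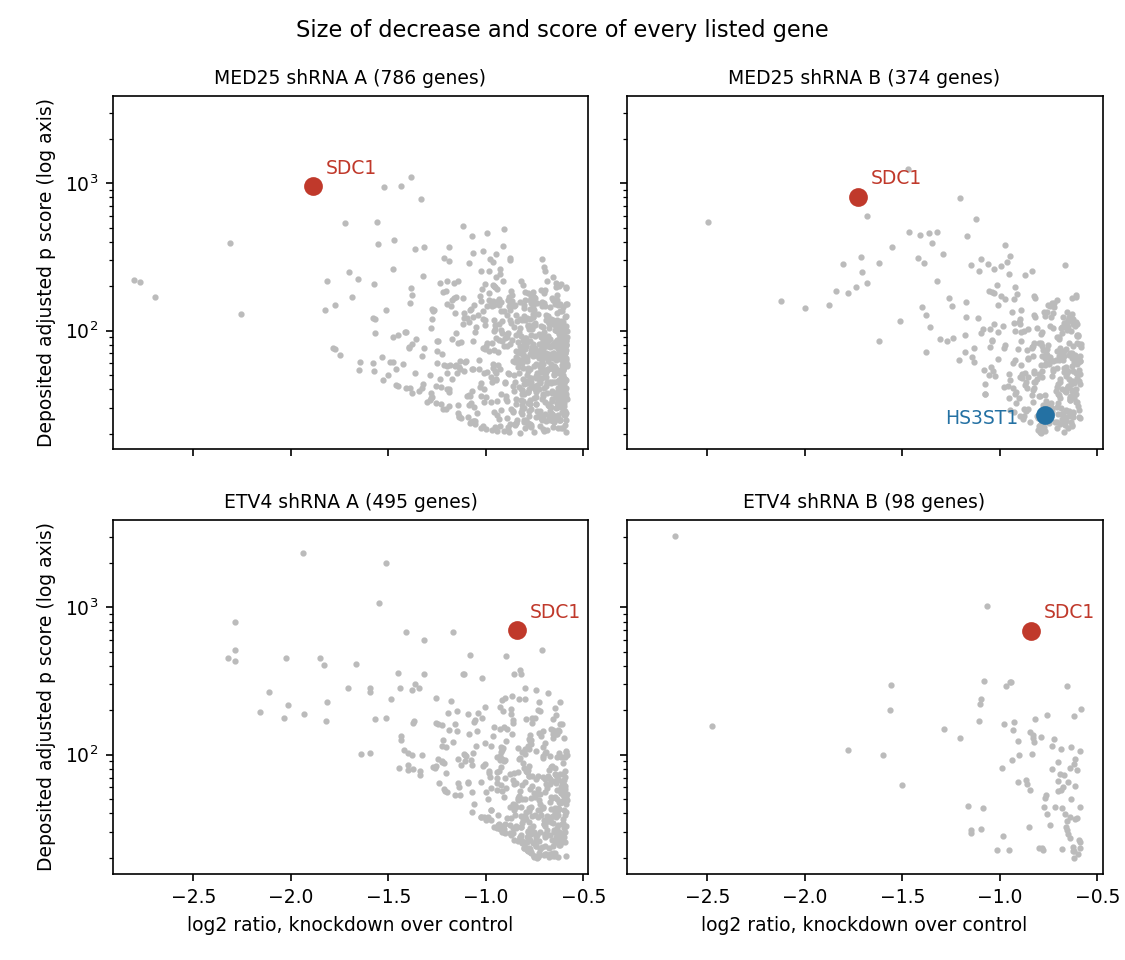
Log2 ratio of knockdown over control (horizontal axis) against the deposited adjusted p score (vertical log axis) for each gene of the 4 tables (grey points), with SDC1 in red and HS3ST1 in blue. SDC1 lies at the top of each panel, number 3, 2, 5 and 3 by score, and HS3ST1 near the bottom of its one panel.

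SDC1 was one of 10 genes listed in all 4 tables. Averaged over the hairpins of a target, its log2 ratio was −1.81 for MED25 (28.6% of control) and −0.84 for ETV4 (55.8%). The gap of −0.96 between these means was the second widest towards MED25 among the 10, after that of NOG, the secreted BMP antagonist noggin, at −1.34. The profile most like that of SDC1, by Euclidean distance over the 4 log2 ratios, was that of RASL11A (distance 0.62), with log2 ratios of −1.47, −1.29, −0.87 and −0.69 in the authors' deposited tables, in the order MED25 hairpin A, hairpin B, ETV4 hairpin A, hairpin B. HEY1, an effector of Notch, followed (0.71), then the ankyrin gene ANK2 (0.84), NOG (0.87) and the transcript AC002456.2 (1.31). AC002456.2 overlaps another gene on the opposite strand, so its value is uncertain if counting ignored strand. With 9 candidate genes this order says which listed genes are close and no more.

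For HS3ST1, likeness rests on 1 log2 ratio and 373 candidates. The closest were DDN, U1, CAMK2D, GADD45A and CERKL, all at −0.77 in the authors' deposited table for MED25 hairpin B. U1 is a small nuclear RNA with many near-identical copies, so its value is uncertain.

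**Figure D3:**
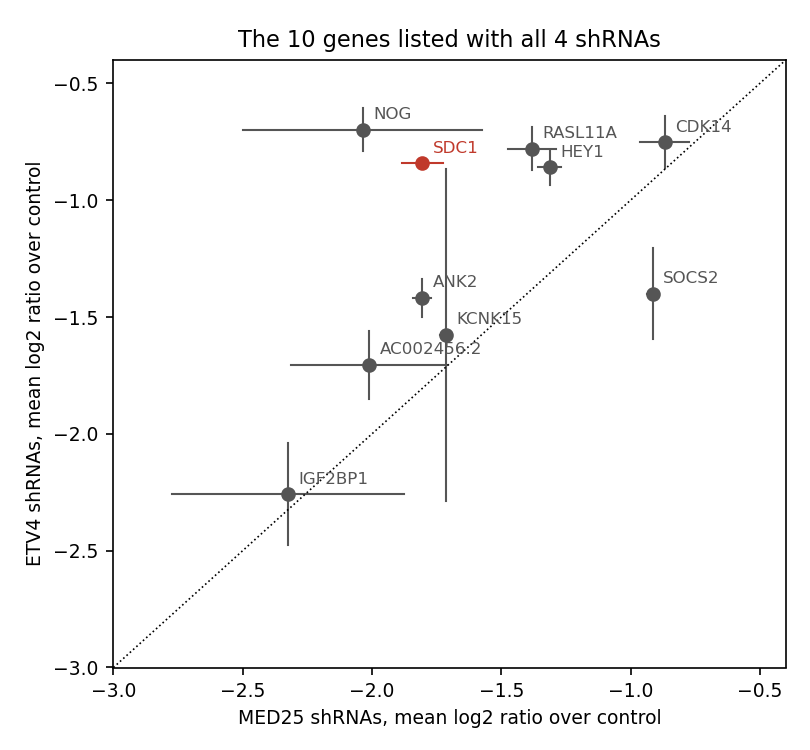
Mean log2 ratio over control for the MED25 hairpins (horizontal axis) and the ETV4 hairpins (vertical axis) of the 10 genes listed in all 4 tables; lines span the values of hairpin A and B and the dotted line marks equal means. SDC1 (red) is at −1.81 and −0.84, with short lines, and NOG is the one gene farther above the dotted line.

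Apart from SDC1 and HS3ST1, TGFBR3 and SULF2 were the genes for heparan sulfate core proteins or enzymes that were listed, both with MED25 hairpins. Of 78 genes for core proteins and glycosaminoglycan or sulfate-donor enzymes, with SDC1 and HS3ST1 left out, 2 were listed with MED25 hairpin A and 1 with each of the other hairpins. Those listed with the ETV4 hairpins were chondroitin enzymes. Over all 9 lists, again without SDC1 and HS3ST1, 10 of 153 genes were listed with MED25 hairpin A, 8 with MED25 hairpin B, 8 with ETV4 hairpin A and 6 with ETV4 hairpin B, which are 6.54%, 5.23%, 5.23% and 3.92%. The shares of all annotated protein-coding genes were 3.44%, 1.61%, 2.17% and 0.456%, and 6.14% were in at least 1 table. The sources used here do not give how many genes the authors tested, and genes silent in PC3 lower these background shares. The lists were also written with results of these data known, so they are described by their counts alone.

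Among 17 core proteins that can carry heparan sulfate, 2 were listed. Besides SDC1 this was TGFBR3, the TGF-beta co-receptor betaglycan, with a log2 ratio of −0.87 with MED25 hairpin A in the authors' deposited table. Over all annotated protein-coding genes 6.14% were in at least 1 table, and SDC1 had been picked, so nothing is read from this count. The other syndecans SDC2, SDC3 and SDC4 and the glypicans GPC1 to GPC6 were in none of the 4 tables. SDC1 is thus the syndecan on record here, although the others may have been lower by less than the limit, or higher.

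Of the enzymes, none of 12 that make the linker or polymerise the chain (EXT1 and EXT2 among them) was listed in any table. Of 20 that modify the chain, 2 were listed, HS3ST1 and SULF2. Over all annotated protein-coding genes 6.14% were in at least 1 table, and HS3ST1 had been picked, so nothing is read from these counts. SULF2 had a log2 ratio of −1.03 with MED25 hairpin A, or number 170 of 786, and of −0.67 with MED25 hairpin B in the authors' deposited tables. MED25 hairpin B is therefore the comparison in which SDC1, HS3ST1 and SULF2 were all listed as lower. The other 3-O-sulfotransferase genes, the N-deacetylase/sulfotransferases NDST1 to NDST4 and the 2-O- and 6-O-sulfotransferases were in no table. None of 7 genes for the sulfate donor and none of 8 lysosomal degradation genes was listed either.

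Syndecan-1 can also carry chondroitin sulfate, and 2 of 16 genes of that branch were listed, both with ETV4 hairpins. These encode the enzymes that start the chondroitin chain on the shared linker. CSGALNACT1 was at −1.21 with ETV4 hairpin A, and CSGALNACT2 at −0.62 with ETV4 hairpin B, on the log2 scale in the authors' deposited tables. Neither was listed with the other ETV4 hairpin or with MED25. Of annotated protein-coding genes, 2.17% were listed with ETV4 hairpin A, 0.456% with ETV4 hairpin B and 6.14% in at least 1 table. Nothing is read from a count of 2 genes.

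Of 17 sheddases, their inhibitors and cytoplasmic partners of syndecans, 2 were listed, where 6.14% of annotated protein-coding genes were in at least 1 table. Nothing is read from so small a count. In the authors' deposited tables the log2 ratio of MMP3, a stromelysin gene, was −1.50 with MED25 hairpin A and −0.73 with ETV4 hairpin A. Its score was 50.1 with MED25 hairpin A and 20.2 with ETV4 hairpin A, where the lowest score listed was 20.1. The log2 ratio of the collagenase gene MMP1 was −1.18 with ETV4 hairpin A in the authors' deposited table. The main syndecan sheddases ADAM17, MMP7, MMP9 and MMP14 and the adaptor syntenin (SDCBP) were in none of the tables.

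Ligands made up the longest group, with 10 of 42 genes for heparan sulfate binding proteins listed in at least 1 table, where 6.14% of annotated protein-coding genes were. With MED25 hairpin A there were 7 (16.7% of the list, against 3.44% of annotated protein-coding genes) and with MED25 hairpin B 5 (11.9% against 1.61%). With ETV4 hairpin A there were 3 (7.14% against 2.17%) and with ETV4 hairpin B 4 (9.52% against 0.456%). Some of these ligands were known to be listed when the list was written, so nothing is read from the difference. NOG, whose product is held at the cell surface by heparan sulfate, was at −1.57, −2.50, −0.79 and −0.61 on the log2 scale in the authors' deposited tables, in the order used above, and is the 1 ligand of the list recorded with every hairpin. The score of NOG with ETV4 hairpin B was 37.3, below the median of 66.7 of the genes listed there. In the authors' deposited tables the chemokine gene IL8 was at −0.83 and −1.17 with MED25 hairpin A and B, and the hedgehog-binding HHIP at −1.58 and −1.13. The EGF-family ligand gene AREG (−1.32), the placental growth factor gene PGF (−1.07) and PDGFB (−0.75) were listed with MED25 hairpin A alone in the authors' deposited table. Scores of AREG (43.1) and PGF (38.8) were below the median of 67.6 of the genes listed there, and that of PDGFB (113) was above it.

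Other ligand genes crossed the targets. Fibronectin (FN1), which has heparin-binding domains, was at −1.18 and −1.62 with the MED25 hairpins and −0.69 with ETV4 hairpin B on the log2 scale in the authors' deposited tables. ESM1 was counted in the ligand list, although it is itself a secreted proteoglycan. It was at −1.78 with MED25 hairpin B and at −0.87 and −1.57 with ETV4 hairpin A and B in the authors' deposited tables. The heparin-binding EGF-like factor gene HBEGF was listed with ETV4 hairpin B alone (−0.73), and the lipoprotein gene APOE with ETV4 hairpin A alone (−0.79), in the authors' deposited tables. The score of APOE was 40.7, below the median of 63.6 of the genes listed with that hairpin.

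A list named for receptors that use heparan sulfate as a co-receptor gave 4 of 16 in at least 1 table. Of annotated protein-coding genes 6.14% were, and the limit given for the ligand list applies here too. This list is wider than its name, as it also holds an integrin and a receptor phosphatase gene. With MED25 hairpin A there were 0, with MED25 hairpin B and ETV4 hairpin A 2 each, and with ETV4 hairpin B 1, in lists so short that single genes set the share. The VEGF receptor gene FLT1 was at −1.15 and −1.29 with the ETV4 hairpins and KDR at −0.90 with ETV4 hairpin A, on the log2 scale in the authors' deposited tables. KDR had a score of 34.0, below the median of 63.6 of the genes listed with that hairpin. The integrin gene ITGB4 was at −0.85 and the receptor phosphatase gene PTPRF at −0.61 with MED25 hairpin B in the authors' deposited table. The FGF receptors FGFR1 to FGFR4 were in none of the tables.

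**Figure D4:**
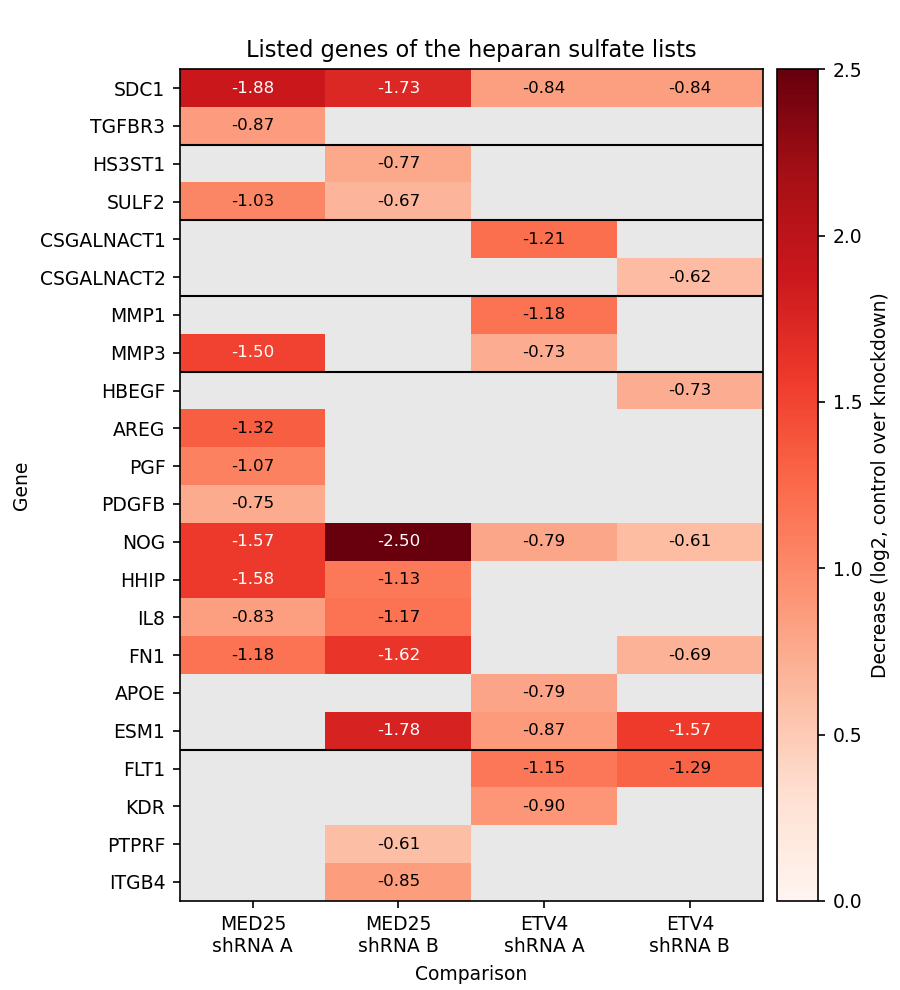
Log2 ratio of knockdown over control, printed in each cell, for the 22 listed genes of the heparan sulfate lists (rows, with black lines between lists) in the 4 comparisons (columns); the colour is the size of the decrease and grey means not listed. SDC1 and NOG are the rows filled in all 4 columns, and HS3ST1 has 1 filled cell, at −0.77.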

How the data were processed

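RNA of PC3 cells was sequenced by the submitters. Their processing notes name Novoalign 3.08.02 as a tool and hg19 as the build. The sources used here do not give the counting, use of strand, scaling or test. Per the file headers, the values deposited are a log2 ratio of each listed gene and its adjusted p, which has an unstated scale and was treated as a score. No library values were used, so depth and replicate spread are unknown. The library number in both headers of a target was taken for its control, and MED25 ratios were turned round to read as knockdown over control. In this reading 0 genes were higher.

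From these values ranks, percents of control, differences and counts were computed with Python 3.11.15, pandas 2.3.3 and numpy 2.4.6, and no test was run. Rank and motif functions were tested on simulated data. Gene types come from GENCODE release 29 (GRCh38), which matched 1350 of 1400 genes. Members and lists were chosen with earlier results of these data known. Of 156 list symbols, 155 matched separate genes and 1 was not matched. Named genes are the members, the targets, all listed list members, the 5 genes with the nearest profile, rank neighbours and genes at the limit of a table (given for MED25 hairpin B). Other names were chosen after their values were seen. Alternatives were a score of at least 50, a 2-fold decrease, protein-coding genes only, rank by score, other distances and a longer promoter window. A planned description of the proteins was not run.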

Additional observations from a re-analysis of the deposited data

How the results depend on the processing

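No paired analysis was possible because the tables give 1 ratio per gene and no value per library, and leaving out replicates was not possible for the same reason. Ranking by score in place of decrease moved SDC1 to number 3 and 2 for MED25 hairpin A and B and to number 5 and 3 for ETV4 hairpin A and B, and HS3ST1 to number 334. With SDC1 and HS3ST1 counted, the lists gave 10 genes with MED25 hairpin B, 9 with ETV4 hairpin A and 7 with ETV4 hairpin B. Asking for at least a 2-fold decrease left 6, 3 and 2 of these, with SDC1 among the 6. In 18 other checks of ranks, totals over the lists and likeness, the value stayed within 1.5 times. Counts of single lists were less stable: 10 of 36 moved by more with the 2-fold decrease, and 3 of 36 with a score of at least 50. At 2-fold, modifying enzymes and receptors with MED25 hairpin B each went from 2 to 0, ligands with ETV4 hairpin A from 3 to 0 and ligands with ETV4 hairpin B from 4 to 1. HS3ST1 has no rank at a score of at least 50, since it scored 26.7. Without depth, small differences between hairpins could not be weighed.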

Other observations

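Genes outside the lists that act on glycosaminoglycans or bind heparin were also listed, all named here after their values were seen. CHST2, a sulfotransferase of keratan sulfate and other N-acetylglucosamine sugars, had log2 ratios of −1.07 with MED25 hairpin A, −0.63 with ETV4 hairpin A and −0.95 with ETV4 hairpin B in the authors' deposited tables. By score it was number 11, number 94 and number 5 in these tables. The hyaluronan synthase gene HAS3 was at −0.97 with MED25 hairpin B in the authors' deposited table. Among genes for heparin-binding protease inhibitors, SERPIND1 (heparin cofactor II) was at −1.09 with MED25 hairpin B, and TFPI2 at −0.83 with ETV4 hairpin B, in the authors' deposited tables. The heparin-binding chemokine gene CXCL2 was at −1.22 and −0.74 with MED25 hairpin A and B and at −0.66 with ETV4 hairpin A in the authors' deposited tables. Its places by score were low: number 448 of 786, number 329 of 374 and number 440 of 495. Also looked up were GAL3ST4 (log2 ratio −1.09) and CXCL3 (−0.78) with MED25 hairpin A, and CXCL6 (−0.61) with ETV4 hairpin A. By score they were number 723, number 715 and number 237. The genes of this paragraph were picked by hand, without a count of all such genes.

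On chromosome 2, protein-coding neighbours of SDC1 were looked up, 5 on each side in the order of GENCODE release 29. WDR35, the third gene on one side, was at −0.60 with MED25 hairpin A and −0.65 with ETV4 hairpin A, and TTC32, the fourth, at −0.64 with ETV4 hairpin A, on the log2 scale in the authors' deposited tables. LAPTM4A and MATN3, which lie between them and SDC1, were in no table, nor were PUM2, RHOB, HS1BP3, GDF7 and LDAH on the other side. Of the 10 protein-coding neighbours of HS3ST1, 0 were listed. Over all annotated protein-coding genes 6.14% were in at least 1 table, so nothing is read from the neighbours of either gene. The epithelial genes KRT8, KRT18 and EPCAM, set for a look-up, were in no table, which says nothing of their levels. Another keratin gene, KRT75, named after its value was seen, was at −0.73 with MED25 hairpin B and −2.29 with ETV4 hairpin A on the log2 scale in the authors' deposited tables.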
